A study of Mus musculus with 9 samples.

Results

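The genes described here are the mouse zinc finger protein genes named Zfp followed by a number below 500, with or without a further letter and number, and without Zfp42. They were found by symbol among the probe sets that the array annotation gives exactly 1 gene symbol. The rule found 166 probe sets for 161 genes, out of 35557 probe sets and 19938 genes named in this way. RNA came from 9 cultures of mouse embryonic stem (ES) cells, the pluripotent cells of the early embryo, and all of them carried the Dgcr8 -/- genotype. Cells in the let-7c group and in the miR-294 group were given a synthetic double-stranded mimic of that microRNA at 50 nM, and cells in the mock group were given none. All were kept without LIF, the cytokine that holds mouse ES cells in self-renewal, and were collected at 12 h. Each group had 3 biological replicates, each on a 1-colour array, and the number of arrays limits the precision.

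Zinc fingers are small protein folds held by a zinc ion, and strings of the common C2H2 type read DNA sequence. Many Zfp genes encode KRAB zinc finger proteins, which bring the corepressor Trim28 and the histone methyltransferase Setdb1 to transposons and imprinted genes in ES cells. The name Zfp is given by fold and not by function, so the set also holds RNA-binding proteins, a SUMO ligase and a histone mRNA processing factor. Dgcr8 is a partner of Drosha in cutting microRNA precursors, so cells without it lack most of their own microRNAs and a mimic adds back a single one. A microRNA pairs with messenger RNAs mainly through its seed near the 5′ end and lowers their stability and translation. The miR-290 family, with miR-294 in it, is abundant in normal ES cells, and let-7 accumulates as cells differentiate.

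The mature sequences of the added microRNAs are shown because they set the groups apart. Both come from RefSeq (GRCm38.p6), are 22 bases long, run 5′ to 3′ and have the seed, bases 2 to 8, in capitals. The labels do not name the arm of miR-294, and the 3p arm is printed. In that build let-7c-5p lies on the plus strand at chr15:85706616-85706637 in the Mirlet7c-2 hairpin and at chr16:77599672-77599693 in the Mirlet7c-1 hairpin. miR-294-3p lies on the plus strand at chr7:3220691-3220712 in its own hairpin. A full match to the let-7c seed in a messenger RNA reads CUACCUC, and one to the miR-294 seed reads AGCACUU.
mmu-let-7c-5p: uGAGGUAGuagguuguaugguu
mmu-miR-294-3p: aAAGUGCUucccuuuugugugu

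Values are log2 intensities as deposited, and a difference of 1 on that scale is 2-fold. To be tested, a gene had to exceed the 40th percentile of an array's probe sets on 3 or more of the 9 arrays, and 140 of the 161 genes did. Of these, 127 lay above the percentile on all 9 arrays and 13 on 3 to 8 of them. The other 21 lay above it on none: Zfp9, Zfp54, Zfp92, Zfp112, Zfp114, Zfp119b, Zfp286, Zfp287, Zfp300, Zfp316, Zfp352, Zfp354a, Zfp354b, Zfp36l3, Zfp385b, Zfp389, Zfp438, Zfp442, Zfp455, Zfp467 and Zfp474. A gene was called where limma's adjusted p (Benjamini-Hochberg over all 13182 genes tested, two-sided) was under 0.05. Errors printed after a difference are standard errors from that fit, with n = 3 arrays a group. Correlations within a group were 0.995 or higher across tested genes, and the median SD of a tested Zfp gene within a group was 0.0794 in let-7c, 0.0738 in miR-294 and 0.0695 in mock. There was no group with a control mimic, so effects of transfecting any RNA are part of each difference from mock.

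All 10 ES cell markers, among them Pou5f1, Sox2 and Nanog, passed the filter, and their mean log2 level per array was 11.72 to 11.74 with let-7c, 11.96 to 12.03 with miR-294 and 11.89 to 11.94 in mock. Of the 10 markers, 6 fell with let-7c, while 4 rose and 2 fell with miR-294; neither of those last falls remained without miR-294 replicate 3, mock replicate 1 or mock replicate 2, or with no filter. Of 8 feeder fibroblast markers, 4 passed the filter, and the mean over all 8 was 6.66 to 6.89, 6.69 to 6.8 and 6.59 to 6.7 in the same order, with Pdgfrb, Dcn, Lum and Postn below it. Of the feeder markers, Col3a1 rose with miR-294 (0.16, adjusted p = 0.0372), a call lost without miR-294 replicate 3 or any mock array (0.0799 to 0.138), with no filter (0.0697) and with the trended, robust variance model (0.0699), while 3 rose with the replicate block. Of 7 primitive endoderm markers, 4 passed, with means of 7.02 to 7.1, 7.06 to 7.11 and 6.91 to 7.03, and Sox17, Pdgfra and Dab2 lay below the filter. Gata4 rose with let-7c (0.31, adjusted p = 0.000945) and Sox7 with miR-294 (0.36, adjusted p = 0.000134). Of the 4 measured markers of 2-cell-like cells, 1 passed, with means of 6.03 to 6.17, 6.1 to 6.17 and 6.04 to 6.12. The part of these markers in the Zfp differences was not tested, and in bulk RNA fewer cells of a type and less RNA per cell cannot be told apart.

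With let-7c, few Zfp genes rose. Against mock, 9 of the 140 rose and 19 fell (6.43% and 13.6%), while over all genes tested 13.9% rose and 14.8% fell (28.7% in either direction). The genes that rose were Zfp367, Zfp28, Zfp319, Zfp36, Zfp78, Zfp365, Zfp454, Zfp212 and Zfp180. Those that fell were Zfp473, Zfp280b, Zfp296, Zfp141, Zfp345, Zfp105, Zfp462, Zfp280c, Zfp322a, Zfp2, Zfp281, Zfp280d, Zfp451, Zfp174, Zfp146, Zfp318, Zfp207, Zfp113 and Zfp106, from the largest fall to the smallest. The median rise was 0.25 and the median fall -0.26, and Zfp473 alone was called with at least a 2-fold difference (against 0.174% of all genes). The rises numbered 3 without mock replicate 1, where rises over all 13182 genes numbered 1401, against 1831 in the main fit. With no filter on dim genes 3 of 161 rose, beside 1547 of all 19938 genes. The let-7c arrays lay wholly above the mock arrays for 17 of the genes and wholly below for 30, against a background of 22% and 21.9% of all genes (43.9% in either direction).

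With miR-294, rises and falls were close in number: 31 rose and 33 fell (22.1% and 23.6%), against 20.7% and 21.1% of all genes (41.9% in either direction). The median rise was 0.29 and the median fall -0.28, and Zfp367 and Zfp148 were called with at least a 2-fold difference, against 0.736% of all genes. The miR-294 arrays lay wholly above mock for 36 of the genes and wholly below for 39, against a background of 28.3% and 25.5% (53.8% in either direction). In the direct comparison of the mimics, 39 were higher with let-7c and 37 higher with miR-294 (27.9% and 26.4%), against 26.2% and 24.5% of all genes (50.8% in either direction). Of these, 4 differed at least 2-fold (Zfp367, Zfp148, Zfp473 and Zfp280b), against 1.63% of all genes. The let-7c arrays lay wholly above the miR-294 arrays for 43 of the genes and wholly below for 41, against a background of 28.7% and 28.3% (57% in either direction). These counts include dim genes that entered the test through groups where they were high. Zfp11 and Zfp30 exceeded the percentile on 4 arrays each, none of them miR-294 arrays. Of the 127 genes above it on all 9 arrays, 7 rose and 19 fell with let-7c. With miR-294 31 rose and 29 fell, and between the mimics 33 were higher and 36 lower in let-7c cells. Shares of all genes were not counted for this narrower set. The median difference over the tested Zfp genes was -0.018 for let-7c minus mock (0.019 over all genes), -0.016 for miR-294 minus mock (0.024 over all genes) and -0.00032 for let-7c minus miR-294 (-0.0057 over all genes). With each array centred on its 75th percentile the median for miR-294 minus mock was 0.0096, of the other sign.

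Most differences were small. A difference under 0.25 in size was found for 125 of the 140 genes with let-7c (89.3%, and 84.7% of all genes) and for 100 with miR-294 (71.4%, and 75.5% of all genes). Differences of at least 0.5 were found for 4 genes with let-7c, 5 with miR-294 and 17 between the mimics (2.86%, 3.57% and 12.1%, against 2.87%, 5.83% and 12.1% of all genes). The genes most like these by name, Zfp500 and above (157 tested), had 9 rises and 28 falls with let-7c (5.73% and 17.8%). A low share of rises with let-7c was thus not particular to Zfp1 to Zfp499 (6.43%). Of the zinc finger genes named Zbtb (39 tested) 10.3% rose with let-7c, and of those named Zscan or Zkscan (18 tested) 0%. Zfp500 and above had 28 rises and 23 falls with miR-294 (17.8% and 14.6%), and 24 were higher and 48 lower in let-7c than in miR-294 cells. In the direct comparison the share higher in let-7c cells was thus 27.9% for Zfp1 to Zfp499 and 15.3% for Zfp500 and above, and the share lower was 26.4% and 30.6%; the difference between the families was not tested.

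**Figure D1:**
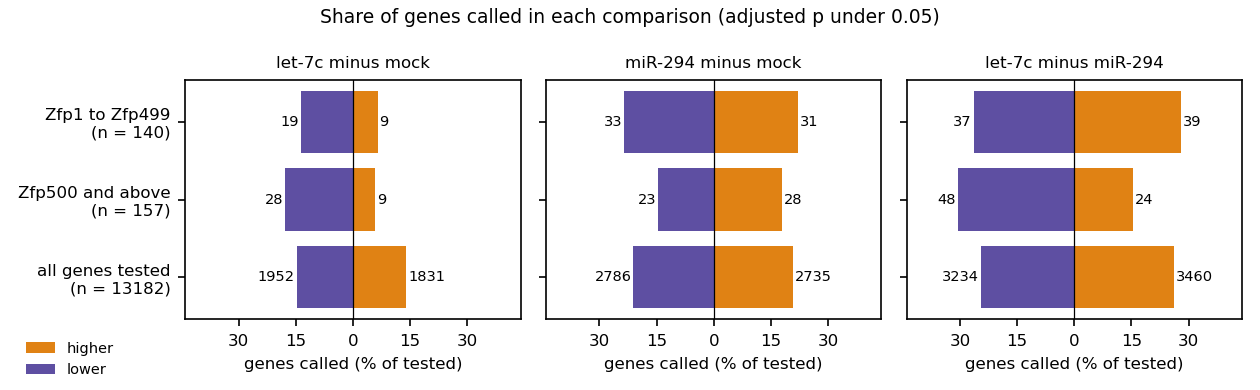
Share of tested genes called higher (right of 0) or lower (left of 0) in each comparison, in percent, for Zfp1 to Zfp499, Zfp500 and above, and all 13182 genes tested; the number beside a bar is the count of genes. With let-7c against mock, 9 of the 140 Zfp1 to Zfp499 genes were higher and 19 lower, and with miR-294 31 were higher and 33 lower.

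The gene that moved most between the mimics was Zfp367, a C2H2 factor described as an activator of globin genes. Its log2 levels were 11.46, 11.45 and 11.50 with let-7c, 9.82, 9.85 and 9.70 with miR-294, and 10.93, 10.96 and 10.91 in mock. No groups overlapped: let-7c arrays were the highest and miR-294 arrays the lowest. It rose by 0.54 ± 0.05 with let-7c (1.45-fold, adjusted p = 2.35e-05) and fell by 1.14 ± 0.05 with miR-294 (2.2-fold, adjusted p = 3.74e-08). Between the mimics the difference was 1.68 ± 0.05, or 3.2-fold (adjusted p = 2.28e-09).

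Zfp148, also called ZBP-89, binds GC-rich promoters. It read 9.35, 9.32 and 9.38 with miR-294, 10.41, 10.51 and 10.39 in mock, and 10.49, 10.54 and 10.55 with let-7c. The miR-294 arrays lay apart from both other groups, while let-7c and mock overlapped. The gene fell by 1.09 ± 0.05 with miR-294 (2.13-fold, adjusted p = 3.96e-08), and its difference with let-7c was 0.09 ± 0.05 (adjusted p = 0.201). As in Zfp367, the miR-294 group was over 2-fold below mock.

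Further falls with miR-294 were smaller. Zfp113, whose role is little described, read 7.96, 7.87 and 7.94 with miR-294 against 8.45, 8.47 and 8.57 in mock, a fall of 0.57 ± 0.06 (adjusted p = 1.61e-05). With let-7c it read 8.37, 8.23 and 8.39 and fell by 0.17 ± 0.06 (adjusted p = 0.0443). That second call was lost without any 1 of 7 arrays, all but let-7c replicate 3 and miR-294 replicate 1 (adjusted p = 0.0506 to 0.151), with no filter (0.0853), with the trended, robust variance model (0.0519) and with only these 2 groups in the fit (0.0606). Zfp174, a member of the SCAN-domain group, read 7.12, 6.93 and 7.11 with miR-294, 7.23, 7.24 and 7.28 with let-7c, and 7.51, 7.37 and 7.55 in mock. No groups overlapped, and it fell by 0.42 ± 0.06 with miR-294 (adjusted p = 0.000292) and by 0.23 ± 0.06 with let-7c (adjusted p = 0.0183). The let-7c call was lost without let-7c replicate 1, mock replicate 1 or mock replicate 3 (adjusted p = 0.0505 to 0.0729). The Zfp174 difference between the mimics, 0.19 ± 0.06 (adjusted p = 0.0233), was lost without let-7c replicate 3 or miR-294 replicate 2 (0.0694 and 0.101).

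Zfp358, Zfp382 and Zfp78 also fell with miR-294, and all were higher in let-7c than in miR-294 cells. Zfp358 read 7.81, 7.87 and 7.72 with miR-294, 8.14, 8.09 and 8.23 in mock and 8.26, 8.18 and 8.52 with let-7c, so only the last pair overlapped. Its fall was -0.36 ± 0.08 (adjusted p = 0.00431). Zfp382, a KRAB zinc finger gene, read 7.76, 7.87 and 7.86 with miR-294 against 8.12, 8.04 and 8.14 in mock, a fall of 0.27 ± 0.06 (adjusted p = 0.00583). With let-7c Zfp382 read 8.28, 8.37 and 8.13, which overlapped mock (difference 0.16 ± 0.06, adjusted p = 0.0886). Zfp78 is given with the genes of opposite sign.

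The largest fall with let-7c was that of Zfp473, which takes part in cutting the 3′ ends of the histone messenger RNAs that are made when DNA is copied. It read 7.12, 6.90 and 6.94 with let-7c, 8.28, 8.10 and 8.03 in mock, and 8.37, 8.26 and 8.32 with miR-294. All let-7c arrays lay below all other arrays, and miR-294 overlapped mock. The gene fell by 1.15 ± 0.07 (2.22-fold, adjusted p = 2.91e-06). Its difference with miR-294 was 0.18 ± 0.07 (adjusted p = 0.0703), which passed with the replicate number as a block (adjusted p = 0.0112). Against miR-294, let-7c was lower by 2.51-fold (difference -1.33 ± 0.07, adjusted p = 1.29e-07).

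All 3 tested genes of the Zfp280 group, homologues of the fly insulator protein Suppressor of Hairy wing, fell with let-7c. Over all genes 14.8% fell, and 3 genes are too few to speak for a family. Zfp280b read 10.12, 10.04 and 10.07 with let-7c, 11.16, 11.25 and 11.06 with miR-294, and 10.91, 10.96 and 10.77 in mock, with no overlap between any groups. It fell by 0.80 ± 0.06 with let-7c (1.74-fold, adjusted p = 1.06e-05) and rose by 0.28 ± 0.06 with miR-294 (adjusted p = 0.00439), a gap of 2.12-fold between the mimics. Zfp280c read 8.63, 8.54 and 8.64 with let-7c, 8.80, 8.82 and 9.01 with miR-294, and 8.87, 8.90 and 8.97 in mock. Its let-7c arrays were the lowest, with a fall of 0.31 ± 0.06 (adjusted p = 0.00322), while miR-294 overlapped mock (difference -0.04 ± 0.06, adjusted p = 0.641). Zfp280d, named here for its family and not by the rule, had mean levels of 9.56 with let-7c, 9.55 with miR-294 and 9.80 in mock. It fell with let-7c (-0.24 ± 0.06, adjusted p = 0.0129) and with miR-294 (-0.25 ± 0.06, adjusted p = 0.00659), and the let-7c call was lost without let-7c replicate 3 or mock replicate 2 (0.0504 and 0.057). The 3 genes were called lower with let-7c, Zfp280d not under every setting. With miR-294 they had 3 different outcomes: a rise, no call and a fall.

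**Figure D2:**
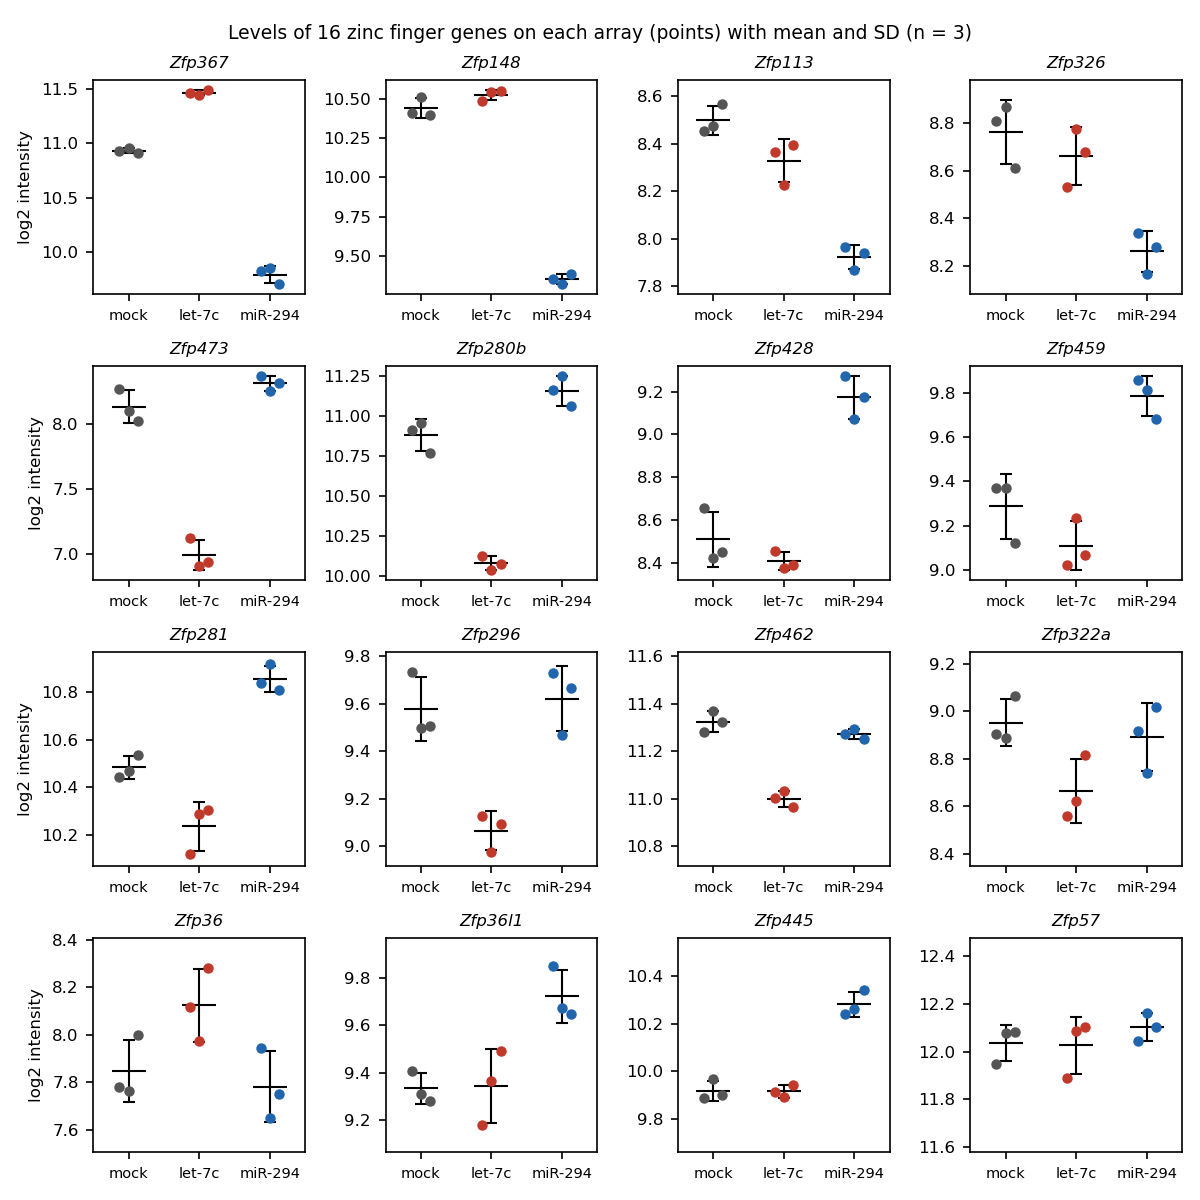
Log2 intensity of 16 Zfp genes on each array (points) by group (mock, let-7c, miR-294), with a long bar for the mean and whiskers for the SD, n = 3; each panel has its own axis, which does not start at 0. Zfp367 and Zfp148 have their lowest arrays with miR-294 (9.70 to 9.85 and 9.32 to 9.38), Zfp473 and Zfp280b with let-7c (6.90 to 7.12 and 10.04 to 10.12), and the 3 groups of Zfp57 overlap.

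The largest rise with miR-294 was that of Zfp428, a zinc finger gene of little-described function. It read 9.27, 9.07 and 9.17 with miR-294, 8.66, 8.42 and 8.45 in mock and 8.46, 8.37 and 8.39 with let-7c. The miR-294 arrays were the highest and the other groups overlapped, with a rise of 0.66 ± 0.07 (1.58-fold, adjusted p = 2.57e-05). Zfp459, from a cluster of KRAB genes, read 9.86, 9.81 and 9.68 with miR-294 against 9.37, 9.37 and 9.12 in mock and 9.02, 9.23 and 9.07 with let-7c. It rose by 0.50 ± 0.08 with miR-294 (adjusted p = 0.00053), and its let-7c difference of -0.18 ± 0.08 (adjusted p = 0.123) passed with the replicate block (0.047). Zfp235 read 7.89, 7.76 and 7.82 with miR-294, 7.67, 7.61 and 7.60 with let-7c, and 7.42, 7.37 and 7.59 in mock, so no groups overlapped. It rose by 0.36 ± 0.06 with miR-294 (adjusted p = 0.000683), and its let-7c difference of 0.16 ± 0.06 (adjusted p = 0.0699) passed with the block (0.0499). Zfp235 was lower in let-7c than in miR-294 cells by -0.20 ± 0.06 (adjusted p = 0.016), a call that was lost without let-7c replicate 3 or miR-294 replicate 1 (0.0523 to 0.0595).

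Called against mock in both comparisons were 17 Zfp genes, which share the mock arrays. Of these, 8 had a fall with let-7c and a rise with miR-294 (5.71% of the tested, against 4.46% of all genes), 3 rose with let-7c and fell with miR-294 (2.14%, against 4.06%), 4 fell with both and 2 rose with both. A further 11 were called with let-7c alone and 47 with miR-294 alone, and 65 in neither comparison. Over all genes 28.7% were called with let-7c and 41.9% with miR-294. Shares of all genes were not counted for the classes other than the opposite ones, so this split is not shown to be particular to the Zfp genes.

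Of the 8 that fell with let-7c and rose with miR-294, Zfp280b was described above and Zfp281 is given with the ES cell regulators. Zfp105 read 7.62, 7.76 and 7.84 with let-7c, 8.03, 8.20 and 8.06 in mock and 8.38, 8.63 and 8.59 with miR-294. It fell by 0.36 ± 0.08 with let-7c (adjusted p = 0.00603) and rose by 0.44 ± 0.08 with miR-294 (adjusted p = 0.00102), with no overlap. Zfp141 read 9.27, 9.26 and 9.29 with let-7c, 9.67, 9.72 and 9.67 in mock and 9.88, 9.91 and 9.89 with miR-294, with no overlap. Its fall was -0.41 ± 0.04 (adjusted p = 4.18e-05) and its rise 0.21 ± 0.04 (adjusted p = 0.00182), and its other probe set lay 0.0526 to 0.0777 from these values on every array; the probe sets may share probes, so this is no independent measurement.

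Zfp146, whose protein is made almost wholly of zinc fingers, read 9.64, 9.62 and 9.86 with let-7c, 9.99, 9.88 and 9.92 in mock and 10.32, 10.30 and 10.27 with miR-294. It rose by 0.37 ± 0.06 with miR-294 (adjusted p = 0.000783). Its fall with let-7c (-0.22 ± 0.06, adjusted p = 0.0216) was lost without let-7c replicate 1 or 2 or mock replicate 1 or 3 (0.0533 to 0.0763). Zfp345 read 7.96, 7.92 and 8.11 with let-7c, 8.38, 8.31 and 8.38 in mock and 8.57, 8.54 and 8.53 with miR-294, again with no overlap. It fell by 0.36 ± 0.05 with let-7c (adjusted p = 0.000583), and its rise with miR-294 (0.19 ± 0.05, adjusted p = 0.0151) was lost without mock replicate 2 (0.0586).

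Zfp106, an RNA-binding protein needed for the upkeep of motor neurons, read 10.63, 10.62 and 10.60 with let-7c, 10.84, 10.72 and 10.73 in mock and 11.11, 11.06 and 11.08 with miR-294. The rise of 0.32 ± 0.05 with miR-294 (adjusted p = 0.000216) was the firmer of its calls. Its fall with let-7c (-0.15 ± 0.05, adjusted p = 0.0345) was lost without any 1 let-7c array or without mock replicate 1 or 3 (0.0552 to 0.134), with no filter (0.0744), with quantile normalization (0.116) and with only these 2 groups in the fit (0.0561). Zfp2, named here to complete the 8, fell with let-7c (-0.26 ± 0.05, adjusted p = 0.0026) and rose with miR-294 (0.17 ± 0.05, adjusted p = 0.0156). The rise of Zfp2 was lost without miR-294 replicate 3, mock replicate 1 or mock replicate 3 (0.0517 to 0.0649).

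The 3 of the opposite kind were Zfp367, Zfp78 and Zfp319. Zfp78 read 7.54, 7.53 and 7.54 with let-7c, 7.34, 7.34 and 7.19 in mock and 7.08, 6.96 and 6.89 with miR-294. It rose by 0.25 ± 0.06 with let-7c (adjusted p = 0.0104) and fell by 0.31 ± 0.06 with miR-294 (adjusted p = 0.00147). Zfp78 lay near the filter, above the percentile on 8 arrays and below it on miR-294 replicate 3. Zfp319 read 8.97, 8.72 and 9.00 with let-7c, 8.65, 8.50 and 8.70 in mock and 8.22, 8.45 and 8.43 with miR-294. The mimics differed by 0.53 ± 0.09 (adjusted p = 0.000344), while both calls of Zfp319 against mock were close to the threshold. Its rise (0.28 ± 0.09, adjusted p = 0.0314) was lost without let-7c replicate 1 or 3 or mock replicate 1 or 2 (0.0557 to 0.121) and with no filter (0.0581). Its fall (-0.25 ± 0.09, adjusted p = 0.039) was lost without miR-294 replicate 1, mock replicate 1 or mock replicate 3 (0.1 to 0.139), with no filter (0.0668), with quantile normalization (0.0506) and with the arrays centred on the 75th percentile (0.0673). Averaging Zfp319 with its other probe set, which lay 1.8 to 2.82 below it and did not pass the filter, also ended the fall (adjusted p = 0.44).

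The genes that moved the same way with both mimics had modest differences. Zfp113, Zfp174, Zfp280d and Zfp318 fell with both. Zfp318 read 9.25, 9.17 and 9.25 with let-7c, 9.25, 9.09 and 9.11 with miR-294 and 9.46, 9.44 and 9.41 in mock, so that mock alone stood apart. Its falls were -0.21 ± 0.05 (adjusted p = 0.0106) and -0.29 ± 0.05 (adjusted p = 0.00118). Zfp365 and Zfp454, the latter named outside the rule, rose with both. Zfp365, linked to centrosomes and genome stability, read 8.21, 8.44 and 8.38 with let-7c, 8.22, 8.49 and 8.46 with miR-294 and 8.09, 8.04 and 8.18 in mock. Its rises were 0.24 ± 0.08 (adjusted p = 0.0426) and 0.29 ± 0.08 (adjusted p = 0.0135). The first was lost without let-7c replicate 2 or 3 or mock replicate 1 or 2 (0.0988 to 0.133), with no filter (0.077) and with quantile normalization (0.0508). The other was lost without miR-294 replicate 2 or 3 or mock replicate 2 (0.0503 to 0.0549). Zfp454 rose by 0.35 ± 0.07 with miR-294 (adjusted p = 0.00278) and by 0.23 ± 0.07 with let-7c (adjusted p = 0.0385), where its arrays overlapped mock. The let-7c call of Zfp454 was lost without let-7c replicate 2 or 3 or mock replicate 1 or 2 (0.0747 to 0.145), with no filter (0.0712), with quantile normalization (0.0651) and with only these 2 groups in the fit (0.0522).

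**Figure D3:**
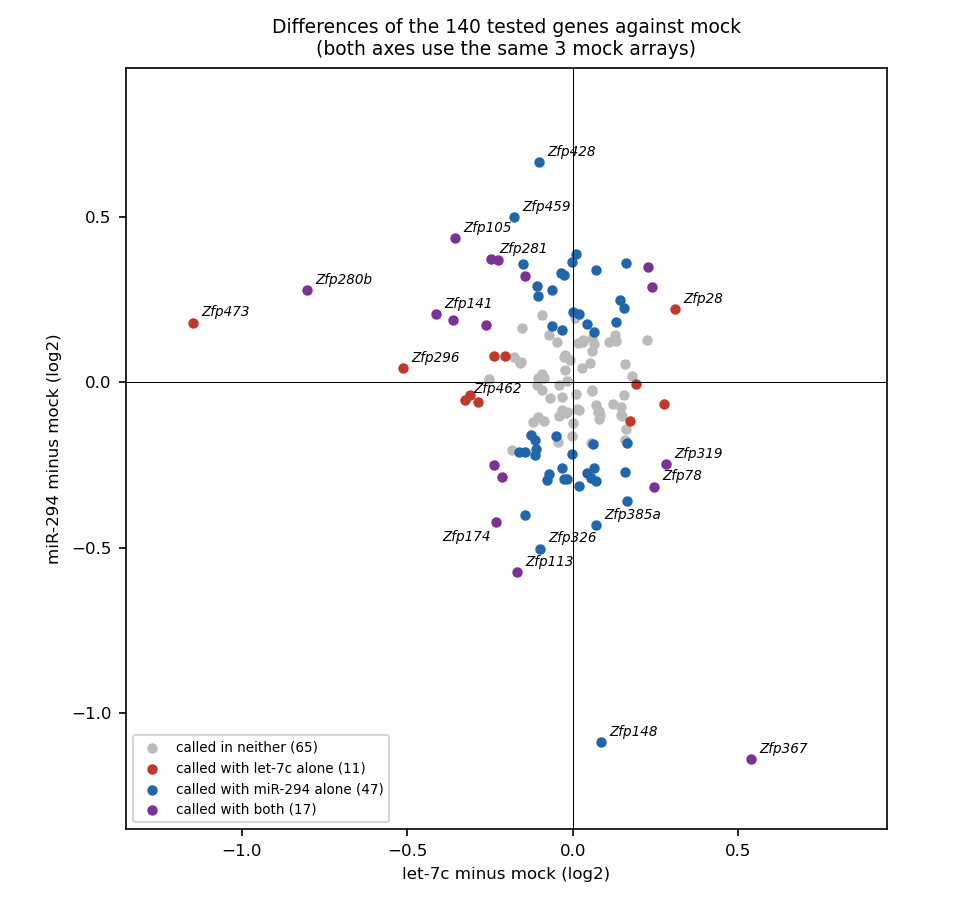
Log2 difference of each of the 140 tested Zfp genes with let-7c (x axis) and with miR-294 (y axis) against the same 3 mock arrays, coloured by the comparison in which the gene was called: 65 in neither, 11 with let-7c alone, 47 with miR-294 alone and 17 with both. Over all genes 28.7% were called with let-7c and 41.9% with miR-294. Zfp473 lies far to the left at -1.15, Zfp367 and Zfp148 lie at the bottom at -1.14 and -1.09, and Zfp428 is highest at 0.66.

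Of the 8 tested regulators of ES cells and the early embryo, 5 fell with let-7c (median -0.23) and none rose in the limma fit, nor did any at an unadjusted p under 0.05; over all genes 14.8% fell and 13.9% rose. With miR-294, 2 rose and 1 fell (20.7% and 21.1% of all genes), and the median was -0.0044. The falls with miR-294 numbered 2 without let-7c replicate 1, miR-294 replicate 3 or mock replicate 1, and with the replicate block, the stricter filter and the trended, robust variance model. The falls with let-7c numbered 3 without let-7c replicate 1 or without mock replicate 3. The ES cell marker mean, given above, was also lowest with let-7c. A link between it and the 5 falls was not tested.

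Zfp281, a transcription factor that balances self-renewal and the exit from it, had opposite calls. It read 10.12, 10.29 and 10.30 with let-7c, 10.44, 10.47 and 10.54 in mock and 10.84, 10.92 and 10.81 with miR-294, with no overlap. It fell by 0.25 ± 0.06 with let-7c (adjusted p = 0.00901) and rose by 0.37 ± 0.06 with miR-294 (adjusted p = 0.000417). Zfp296, a partner of Pou5f1 that aids reprogramming, read 9.13, 8.98 and 9.09 with let-7c, 9.73, 9.47 and 9.67 with miR-294 and 9.73, 9.50 and 9.50 in mock. The let-7c arrays were the lowest, with a fall of 0.51 ± 0.08 (adjusted p = 0.000925), and miR-294 and mock overlapped (difference 0.04 ± 0.08, adjusted p = 0.698).

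Zfp462, which is needed for heterochromatin at lineage genes in ES cells, read 11.003, 11.03 and 10.96 with let-7c, 11.27, 11.29 and 11.25 with miR-294 and 11.28, 11.37 and 11.32 in mock. It showed the same order, with a fall of 0.32 ± 0.04 with let-7c (adjusted p = 0.000324) and a difference of -0.05 ± 0.04 with miR-294 (adjusted p = 0.358). Zfp322a, an activator of Pou5f1 and Nanog, read 8.56, 8.62 and 8.82 with let-7c, 8.92, 8.74 and 9.02 with miR-294 and 8.91, 8.89 and 9.06 in mock. Its fall with let-7c (-0.29 ± 0.08, adjusted p = 0.0268) was lost without let-7c replicate 1 or 2 or mock replicate 3 (0.0765 to 0.0995) and with no filter (0.0508). Zfp207, a chaperone of the checkpoint protein Bub3 at kinetochores, read 10.97, 11.13 and 11.06 with let-7c, 11.18, 11.30 and 11.30 in mock and 11.33, 11.33 and 11.36 with miR-294. Its fall of 0.21 ± 0.05 with let-7c (adjusted p = 0.0154) was lost without let-7c replicate 1, mock replicate 2 or mock replicate 3 (0.0532 to 0.0616).

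Zfp217, a corepressor subunit, was the one that fell with miR-294. It read 9.90, 9.77 and 9.86 with miR-294, 10.06, 10.06 and 10.19 with let-7c and 10.19, 10.25 and 10.30 in mock. It fell by 0.40 ± 0.06 with miR-294 (adjusted p = 0.000177), and its let-7c difference was -0.14 ± 0.06 (adjusted p = 0.0768, and 0.0489 with the replicate block). Zfp219, a partner of Sox9 in cartilage, read 9.45, 9.58 and 9.52 with miR-294 against 9.32, 9.32 and 9.29 in mock and rose by 0.21 ± 0.05 (adjusted p = 0.00679). With let-7c it read 9.38, 9.27 and 9.34, across the mock values (adjusted p = 0.792). Zfp410, an activator of the remodeller gene Chd4, was called in neither comparison with mock. It read 9.47, 9.65 and 9.61 with let-7c, 9.29, 9.24 and 9.47 with miR-294 and 9.42, 9.59 and 9.55 in mock, and its miR-294 difference was -0.18 ± 0.07 (adjusted p = 0.0615, and 0.0272 with the replicate block). Zfp410 was higher in let-7c than in miR-294 cells by 0.24 ± 0.07 (adjusted p = 0.0155), a call that was lost without let-7c replicate 2 or 3 or miR-294 replicate 1 or 2 (0.0509 to 0.0656). Zfp352, a gene of the early embryo, did not pass the filter.

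The imprint guardians Zfp57 and Zfp445 are KRAB proteins that keep methylation on imprinted genes. Zfp57 read 11.89, 12.09 and 12.11 with let-7c, 12.04, 12.16 and 12.10 with miR-294 and 11.95, 12.08 and 12.08 in mock. All groups overlapped, and no comparison called it (differences from mock -0.0087 ± 0.07 and 0.07 ± 0.07, adjusted p = 0.934 and 0.43). Zfp445 read 10.24, 10.26 and 10.34 with miR-294, 9.89, 9.97 and 9.90 in mock and 9.91, 9.89 and 9.94 with let-7c. The miR-294 arrays lay above the others, with a rise of 0.36 ± 0.05 (adjusted p = 9.3e-05), while let-7c overlapped mock (difference -0.0025 ± 0.05, adjusted p = 0.974).

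The Zfp36 family are CCCH proteins that bind AU-rich elements in 3′ untranslated regions and speed the loss of the poly(A) tail. Zfp36 itself, or tristetraprolin, read 8.12, 7.97 and 8.28 with let-7c, 7.94, 7.65 and 7.75 with miR-294 and 7.78, 7.76 and 7.997 in mock. Its rise with let-7c (0.28 ± 0.09, adjusted p = 0.049) came from groups that overlapped. That call was lost without let-7c replicate 1 or 3, miR-294 replicate 3, or mock replicate 1 or 2 (0.0597 to 0.171), with no filter (0.0855), with quantile normalization (0.0624) and with all probe sets as rows of their own (0.0514). Zfp36l1 read 9.85, 9.67 and 9.65 with miR-294, 9.41, 9.31 and 9.28 in mock and 9.18, 9.37 and 9.49 with let-7c. It rose by 0.39 ± 0.08 with miR-294 (adjusted p = 0.00259), and let-7c overlapped mock (difference 0.01 ± 0.08, adjusted p = 0.93). Zfp36l2 read 9.24, 9.18 and 9.15 with let-7c, 9.17, 9.37 and 9.15 with miR-294 and 9.20, 9.05 and 9.15 in mock, with all groups overlapping and no call (adjusted p = 0.541 and 0.256 against mock). Between the mimics, Zfp36 was higher with let-7c (0.34 ± 0.09, adjusted p = 0.0102) and Zfp36l1 higher with miR-294 (difference -0.38 ± 0.08, adjusted p = 0.00211).

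Among the 9 tested genes with roles in RNA handling, ubiquitin, SUMO or signalling, 3 fell with let-7c (Zfp473, Zfp451 and Zfp106) and none rose in the limma fit (1 at an unadjusted p under 0.05, and 1 called with quantile normalization or without let-7c replicate 2), against 14.8% and 13.9% of all genes. With miR-294, 3 rose (Zfp106, Zfp330 and Zfp277, the last named outside the rule) and 2 fell (Zfp326 and Zfp110), against 20.7% and 21.1% of all genes. Rises with miR-294 numbered 1 without miR-294 replicate 1 or mock replicate 3, and falls numbered 1 without miR-294 replicate 2 or 3 or mock replicate 1 or 2. Zfp326, a subunit of the DBIRD complex that couples elongation with splicing, read 8.34, 8.17 and 8.28 with miR-294, 8.53, 8.78 and 8.68 with let-7c and 8.81, 8.87 and 8.61 in mock. The miR-294 arrays were the lowest, with a fall of 0.50 ± 0.08 (adjusted p = 0.000468). Zfp451, a SUMO ligase, read 9.39, 9.32 and 9.41 with let-7c, 9.60, 9.71 and 9.53 in mock and 9.73, 9.67 and 9.68 with miR-294. It fell by 0.24 ± 0.05 with let-7c (adjusted p = 0.00648), and miR-294 overlapped mock (adjusted p = 0.245). Zfp330, a nucleolar protein, read 10.44, 10.28 and 10.25 with miR-294 against 10.14, 10.12 and 10.04 in mock, a rise of 0.22 ± 0.07 (adjusted p = 0.0209) that was lost without miR-294 replicate 1 or mock replicate 3 (0.0754 and 0.0751). Zfp110, which interacts with the p75 neurotrophin receptor, fell by 0.17 ± 0.05 with miR-294 (adjusted p = 0.0169), a call that was lost without miR-294 replicate 2 or 3 or mock replicate 1 or 2 (0.0537 to 0.0677).

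Of the 11 tested regulators of development and differentiation, let-7c gave 1 rise and 1 fall (13.9% and 14.8% of all genes), and miR-294 gave 4 rises and 2 falls (20.7% and 21.1% of all genes). The let-7c rise, that of Zfp365, is lost under the settings given above, and with the replicate block 2 fell with let-7c. The rises with miR-294 numbered 2 without miR-294 replicate 2, without mock replicate 2 and with the stricter filter. Zfp423, a cofactor of Smad and Ebf proteins in nerve and fat cell formation, read 9.83, 10.20 and 10.07 with miR-294, 9.59, 9.78 and 9.66 in mock and 9.43, 9.64 and 9.51 with let-7c. It rose by 0.36 ± 0.09 with miR-294 (adjusted p = 0.0082), and its let-7c difference of -0.15 ± 0.09 (adjusted p = 0.242) passed with the replicate block (0.0407). In each group replicate 1 was the lowest for Zfp423. Zfp385a, a p53 cofactor, read 7.87, 7.70 and 7.90 with miR-294, 8.17, 8.34 and 8.26 in mock and 8.46, 8.26 and 8.27 with let-7c. It fell by 0.43 ± 0.07 with miR-294 (adjusted p = 0.000647), and let-7c overlapped mock (difference 0.07 ± 0.07, adjusted p = 0.492). Zfp335, part of a histone methyltransferase complex, and Zfp469, known from the cornea, were not called against mock with either mimic. Both were higher in let-7c than in miR-294 cells, Zfp335 by 0.19 ± 0.05 (adjusted p = 0.0074) and Zfp469 by 0.30 ± 0.06 (adjusted p = 0.00197).

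The other genes that rose with let-7c had small differences, and roles for them are little described. Zfp212 read 9.20, 9.21 and 9.25 with let-7c, 9.06, 8.98 and 9.03 with miR-294 and 9.05, 9.07 and 8.97 in mock, a rise of 0.19 ± 0.05 (adjusted p = 0.00976). Zfp180 read 9.01, 9.05 and 9.10 with let-7c, 8.82, 8.78 and 8.69 with miR-294 and 8.85, 8.98 and 8.81 in mock. Its rise (0.17 ± 0.06, adjusted p = 0.0399) was lost without any 1 let-7c array, miR-294 replicate 2, or mock replicate 1 or 3 (0.0504 to 0.138) and with no filter (0.0777). Zfp28, one of the 13 genes near the filter, read 7.33, 7.08 and 7.27 with let-7c, 7.13, 6.999 and 7.29 with miR-294 and 6.73, 7.08 and 6.94 in mock. Its rise (0.31 ± 0.10, adjusted p = 0.0377) was lost without let-7c replicate 1 or 3 or mock replicate 1 or 3 (0.0729 to 0.131) and with no filter (0.067).

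Many KRAB genes lie in clusters that arose by copying, and 39 of these genes fell in 6 runs of at least 4 along the RefSeq gene order, with no more than 3 other protein-coding genes between neighbours. Copies share sequence, so their probe sets may share signal, and values within a run are uncertain for that reason. Genes named only here were chosen after their values were seen. Of all genes, 13.9% were called higher and 14.8% lower in let-7c cells than in mock. For miR-294 against mock these shares were 20.7% and 21.1%, and for let-7c against miR-294 they were 26.2% and 24.5%. The runs held 3 to 9 tested genes each, too few to set against such shares. In the run from Zfp180 to Zfp94, 8 of 10 genes were tested: Zfp180 rose with let-7c, Zfp235 rose and Zfp61 fell with miR-294, and 4 were higher and 1 lower in let-7c than in miR-294 cells. In the run from Zfp84 to Zfp146, Zfp27, Zfp74 and Zfp382 fell with miR-294 while their neighbour Zfp146 rose, so differences ran from -0.29 to 0.37. Zfp420 of that run was also called lower (-0.21, adjusted p = 0.0243), but it exceeded the percentile on 4 arrays, all 3 mock arrays among them, so it entered the test through the group where it was high. That call was lost without miR-294 replicate 2 or 3 or mock replicate 1 (0.0533 to 0.0944). In the run with Zfp455 to Zfp87, Zfp459 and Zfp457 rose with miR-294, the latter not without miR-294 replicate 1 or mock replicate 1 or 2 (0.0568 to 0.0769). None of the 6 tested genes of that run was called with let-7c in the limma fit (1 was lower at an unadjusted p under 0.05). In the run of Zfp329, Zfp110, Zfp128, Zfp324 and Zfp446, Zfp446 rose with miR-294 (0.33, adjusted p = 0.000497) and Zfp110 fell. Zfp324 was called lower (-0.20, adjusted p = 0.0412), and that call was lost without any of 5 arrays (let-7c replicate 3, miR-294 replicates 1 and 2, mock replicates 2 and 3, 0.0539 to 0.157), with no filter (0.0722), with 75th percentile centring (0.0726) and with only the 2 groups in the fit (0.0591). Zfp454 and Zfp2 are neighbours in a run of 4 and both rose with miR-294, while with let-7c they had opposite calls. In the run of Zfp54, Zfp51, Zfp53 and Zfp52, the latter pair fell with miR-294, Zfp53 not without miR-294 replicate 3 or mock replicate 3 (0.0726 and 0.0739). No run had all of its tested genes called in 1 direction in the limma fit. At an unadjusted p under 0.05, all 3 tested genes of the run with Zfp54 were higher in let-7c than in miR-294 cells.

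The proteins through which KRAB zinc fingers silence DNA were examined as a list of 26 genes, of which 23 had a probe set and passed the filter. With let-7c, 11 fell and 1 rose (median -0.14), against 14.8% and 13.9% of all genes. The falls numbered 7 without mock replicate 2. Smarcad1, a remodeller bound by Trim28, fell by 0.63 ± 0.06 (adjusted p = 2.72e-05), Setdb1 by 0.48 ± 0.05 (adjusted p = 5.1e-05) and Cbx5, the heterochromatin protein HP1 alpha, by 0.48 ± 0.04 (adjusted p = 1.76e-05). Trim28, the hub of the pathway, fell by 0.22 ± 0.04 (adjusted p = 0.00319). The single rise was that of Chd3, a remodeller (0.20, adjusted p = 0.0288), which was lost without let-7c replicate 2 or 3 or mock replicate 1 or 3 (0.0541 to 0.107) and with no filter (0.0576). With miR-294, 5 fell and 2 rose (median -0.0066), against 21.1% and 20.7% of all genes, and the rises numbered 4 with the 75th percentile centring and with the trended, robust variance model. Pphln1, a subunit of the HUSH complex, fell by 0.38 ± 0.06 (adjusted p = 0.000385), and Cbx1, another heterochromatin protein, rose by 0.35 ± 0.05 (adjusted p = 0.000147). Setdb1 and Trim28 had differences of 0.03 ± 0.05 (adjusted p = 0.59) and 0.08 ± 0.04 (adjusted p = 0.18) with miR-294. Chd4, the gene that Zfp410 activates, fell with let-7c (-0.24, adjusted p = 0.00143) and with miR-294 (-0.25, adjusted p = 0.000639).

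The deadenylation and decay factors with which Zfp36 proteins act were examined in a list of 23 genes, all tested. The list also holds the RNA-binding proteins Pabpc1 and Elavl1, which are not decay factors themselves. With let-7c 5 fell (21.7%, against 14.8% of all genes, median -0.038) and none rose in the limma fit, nor did any at an unadjusted p under 0.05, though 1 rose with quantile normalization and with the trended, robust variance model. The falls numbered 3 without mock replicate 2 and without mock replicate 3. Elavl1 was 1 of the 5 (-0.15, adjusted p = 0.02). Its call was lost with quantile normalization and without let-7c replicate 1, mock replicate 2 or mock replicate 3 (0.0518 to 0.0728). Cnot11, a subunit of the CCR4-NOT deadenylase, fell by 0.52 ± 0.05 (adjusted p = 4.62e-05), and the exonuclease gene Xrn1 fell by 0.27 (adjusted p = 0.00153). With miR-294 also 5 fell (21.7%, near the 21.1% of all genes, median 0.0092) and none rose in the limma fit (2 at an unadjusted p under 0.05), and between 1 and 3 rose under 6 of the other settings. Cnot6 and Cnot6l, the catalytic CCR4 subunits, fell by 0.87 ± 0.06 (adjusted p = 8.51e-07) and 0.64 ± 0.06 (adjusted p = 6.25e-06), and the decapping enzyme gene Dcp2 fell by 0.52 ± 0.04 (adjusted p = 4.25e-06). Cnot6, Cnot6l and Dcp2 were not called with let-7c, with differences of 0.05, 0.06 and 0.02. Xrn1 was the decay gene called with both mimics (-0.23 with miR-294, adjusted p = 0.00213).

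**Figure D4:**
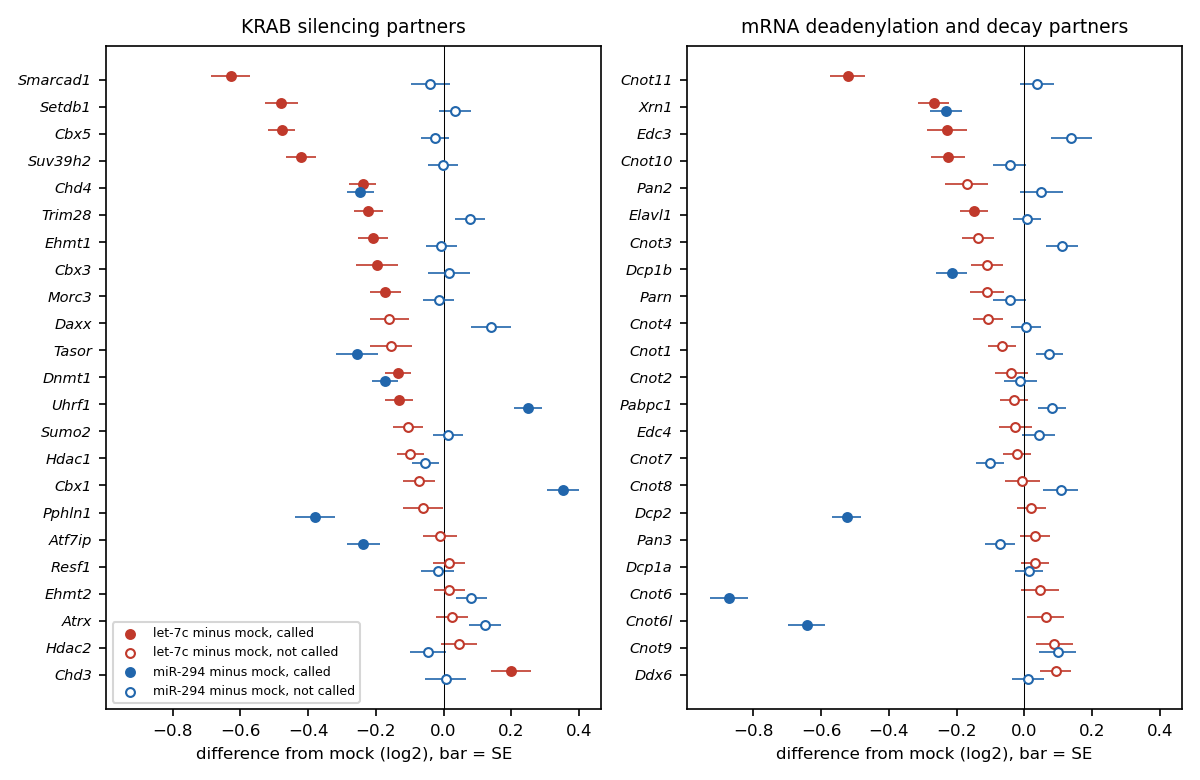
Log2 difference from mock (points) with its standard error (bars), with let-7c in red and miR-294 in blue. The left panel holds the 23 tested KRAB silencing partners and the right panel the 23 genes of the deadenylation and decay list. Filled points were called. With let-7c Smarcad1, Setdb1 and Cbx5 are lowest in the left panel at -0.63, -0.48 and -0.48, and with miR-294 Cnot6 and Cnot6l are lowest in the right panel at -0.87 and -0.64.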

How the data were processed

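RNA of 9 cultures (3 let-7c, 3 miR-294 and 3 mock) was extracted with Trizol, labelled with biotin and hybridised to 1-colour arrays, per the labels' protocols. The authors deposited 1 value per probe set and array, made with GCRMA per the submitters' processing notes, of which no version or setting is named in the sources used here. Deposited numbers were read as log2 intensities from their range, as no header states the scale, and no further normalization was applied. Array medians lay between 7.364 and 7.414, and at most 0.0309% of values were identical between any 2 arrays.

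Genes were named from probe sets with 1 symbol in the array annotation (21789 of 35557; 1621 had several and 12147 none), and all 166 Zfp probe sets matched RefSeq (GRCm38.p6) by gene ID. The probe set with the highest mean stood for a gene; Zfp60, Zfp141, Zfp319, Zfp395 and Zfp407 had another. The 2 probe sets of Zfp395 differed in size of change. In the limma fit on every probe set, the unused one gave -0.60 with miR-294 (adjusted p = 6.48e-05) and the used one -0.30 (adjusted p = 0.0034). Between the mimics they gave 0.79 and 0.37. GCRMA background correction and normalization can compress the differences of dim probe sets.

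Differences were tested with limma 3.58.1 in R 4.3.3 (lmFit and eBayes) on all 9 arrays (3 group means, leaving 6 residual degrees of freedom); it was tested on simulated data. P-values are two-sided and were adjusted over the 13182 genes tested. Alternatives were the replicate block, no and a stricter filter (60th percentile), quantile normalization, centring on the 75th percentile, the mean of probe sets, every probe set, a trended robust variance model, only the 2 groups compared, and leaving out each array. Same-numbered arrays deviated together between let-7c and mock (correlations 0.418, 0.301 and 0.133) and between miR-294 and mock (0.363, 0.272 and 0.283). Between let-7c and miR-294 these correlations were 0.215, 0.248 and 0.0285, while those of differently numbered arrays ran from -0.257 to 0.071. By this measure replicates 1 and 2 deviated together in all groups. Replicate 3 of let-7c did so less clearly, as its correlation was 0.149 with mock replicate 2 and 0.071 with miR-294 replicate 2. The labels do not say what a number marks. The fit has no block, and values with one are given where it changes a call of a gene named by the rule below. Over all tested Zfp genes the block took the calls from 28 to 37 with let-7c and from 64 to 74 with miR-294. Between the mimics they went from 76 to 82.

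Named genes are, in each comparison, the 8 strongest called rises and the 8 strongest called falls among genes whose groups did not overlap. A fixed set of known regulators, up to 6 with opposite calls each way and up to 4 called per list were also named. Outside this rule are Zfp2, Zfp11, Zfp30, Zfp277, Zfp280d, Zfp454 and genes named only for their chromosomal neighbours. The Zfp genes, the lists and this rule were chosen with earlier results of these data known. Protein features and 3′ untranslated regions of the Zfp genes, and Zfp91, Zfp143 and Zfp260, were not analysed here.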

Additional observations from a re-analysis of the deposited data

How the results depend on the processing

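With 3 arrays a group, calls near the threshold depend on single arrays. Of the 28 Zfp genes called with let-7c against mock, 13 were tested and called under all of 17 alternatives (every probe set left out), 2 held wherever tested and 13 were lost under at least 1. With miR-294 these were 31, 14 and 19 of 64, and between the mimics 47, 15 and 14 of 76. Among the 45 genes named by the rule, 92 results were called, and none changed sign under the alternatives that tested it: 66 held under all 18, 6 held but were not tested under all, and 20 were lost under at least 1, of which 10 only by leaving out an array. Rises with let-7c numbered 3 of 161 with no filter, beside 1547 of all 19938 genes. Genes higher in let-7c than in miR-294 cells numbered 25 of 91 with the stricter filter, where fewer genes are tested, beside 2921 of all 9209. The median Zfp difference was 0.0096 for miR-294 minus mock with 75th percentile centring, and for let-7c minus miR-294 it was -0.022 with the stricter filter and -0.022 with that centring. Leaving out each array gave 3 to 9 rises and 13 to 20 falls with let-7c (median -0.032 to -0.0026). With miR-294 there were 25 to 33 rises and 27 to 34 falls (median -0.018 to -0.0016). Between the mimics 32 to 40 were higher and 32 to 38 lower (median -0.017 to 0.014). Over all 13182 genes the same fits gave 1294 to 1866 rises and 1396 to 1953 falls with let-7c. For miR-294 these were 2172 to 2864 and 2333 to 2866, and between the mimics 3059 to 3426 were higher and 2921 to 3172 lower. With the replicate block, 13 rose and 24 fell with let-7c, 37 rose and 37 fell with miR-294, and 43 were higher and 39 lower between the mimics, of 140 tested. Over all 13182 genes the block gave 2272 rises and 2285 falls, 3089 and 3096, and 3731 higher and 3500 lower; of the named genes, the block ended no call and added those given beside Zfp217, Zfp235, Zfp423, Zfp459, Zfp410 and Zfp473. The cause of these changes was not tested.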
